A study of Mus musculus with 8 samples.

Results

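Thick ascending limb nuclei with claudin 16 were described across single-nucleus RNA-seq libraries of mouse kidney. A nucleus was a member when it held at least 2 unique molecular identifiers (UMIs, tags that count captured RNA molecules) of Slc12a1, at least 2 summed over Cldn16, Cldn19 and Tmem207, none of Cldn10, at most 1 of Slc12a3 and none of Nos1. The rule was met by 1828 of 81391 nuclei that passed quality limits (500 genes or more, 800 UMIs or more, and no more than 2% of UMIs from mitochondrial genes). The members were thus chosen by the measured counts of these 7 genes, and the levels of these genes within the members are given as a description, with no test.

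The 8 libraries came from 8 male mice on a C57BL/6J background, with 2 mice in each of 4 groups. All mice were Bmal1 lox/lox, that is, both copies of Bmal1 (Arntl) carried target sites of the Cre recombinase. The cKOt mice also carried Pax8-rtTA and LC-1, so that doxycycline switched on Cre in Pax8-expressing renal tubule cells, and the Ctrl mice were their Bmal1 lox/lox littermates without these transgenes. Both genotypes drank doxycycline (2 mg/ml) with sucrose (20 mg/ml) for 2 weeks from 8 weeks of age, so Ctrl mice had the drug but no induced Cre. Mice lived under 12 h light and 12 h dark, and kidneys were taken at 14 weeks of age at ZT4, 4 h after lights on, or at ZT16, 4 h after lights off. The deletion was not limited to the thick ascending limb, since Pax8 drives it along the tubule. Replicates are mice, with 2 per group. In the gene tests of time and genotype, the 4 groups were fitted together and share an estimate of the spread between replicate mice. Where different nuclei of the same mice are compared, the library is a block, and p-values rest on the spread of the differences within mice.

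The thick ascending limb takes up sodium, potassium and chloride through the cotransporter NKCC2, encoded by Slc12a1, without water following. The salt transport leaves the lumen electrically positive, and this voltage drives calcium and magnesium between the cells, through tight junctions in which claudin 16 and claudin 19 form the cation path. Other cells of the same segment have tight junctions of claudin 10, which favours sodium. Loss of claudin 16 or claudin 19 is known to cause urinary wasting of magnesium and calcium.

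The members numbered 218 and 235 in the Ctrl ZT4 libraries, 162 and 209 in cKOt ZT4, 274 and 258 in Ctrl ZT16, and 217 and 255 in cKOt ZT16. Their summed UMIs ran from 704055 to 1327926 per library, and the median nucleus held 3552 to 4910 UMIs by library. Malat1, a nuclear RNA, took 11.2% to 13.9% of the members' UMIs. Pairs of libraries shared 18 to 42 cell barcodes among all nuclei that passed the quality limits. Scrublet called 97 members (5.31%) doublets, 2.98% to 8.53% by library.

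Tmem207, which encodes a small membrane protein and lies next to Cldn16 in the RefSeq gene order, brought most members in. It was detected in 1606 members (87.9%), Cldn16 in 810 (44.3%) and Cldn19 in 634 (34.7%). All 3 genes were found together in 190 members (10.4%), exactly 2 of them in 842 (46.1%), and Tmem207 alone in 676. Cldn16 alone marked 56 members (3.06%) and Cldn19 alone 64 (3.50%). Thus 44.3% of nuclei named for claudin 16 held a UMI of Cldn16 itself.

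Free RNA was judged from nuclei that should lack these genes. Tmem207 was found in 2.19% of 7791 endothelial nuclei (at least 3 Flt1 and 1 Kdr UMIs) and 2.71% of 21691 proximal tubule nuclei (at least 5 Lrp2 and 3 Slc34a1 UMIs). Cldn16 was found in 1.49% and 1.03%, and Cldn19 in 1.86% and 1.54%. The median depth was 4077.5 UMIs in the members, 2469 in the endothelial and 6486 in the proximal tubule nuclei. Since the rule asked for at least 2 UMIs of these 3 genes, their higher detection in the members was fixed by it and tests nothing. Slc12a1 alone did not mark the segment, because 61.9% of endothelial and 61.0% of proximal tubule nuclei held at least 1 UMI of it. Cldn10, whose absence the rule required, was found in 18.1% of endothelial and 90.4% of proximal tubule nuclei, so the latter gave no measure of its free RNA. The limits on Cldn10 may therefore also sort nuclei by their proximal tubule RNA, which was not tested.

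The limits on the rule fell in different places along each count. Among nuclei that met the other limits, 9864 had a claudin side sum of 0, 1085 a sum of 1, 442 a sum of 2 and 309 a sum of 3, so the limit cut through a tail of weakly marked nuclei. For Cldn10, 910 nuclei held 1 UMI and 549 held 2. For Slc12a1, 43 held none, 28 held 1 and 24 held 2, while the median member held 66. For Slc12a3, the sodium chloride cotransporter of the distal convoluted tubule, 360 members sat at the limit of 1 UMI and 59 nuclei lay just outside with 2.

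The label was checked against markers. Umod, which encodes uromodulin, was detected in 95.2% of members against 24.5% of endothelial nuclei, and Egf, the epidermal growth factor precursor, in 97.9% against 31.8%. Casr, the calcium-sensing receptor, was found in 78.8% of members, 3.67% of endothelial and 3.73% of proximal tubule nuclei. Kcnj10, a basolateral potassium channel, was found in 640 of the 1828 members, in 1.69% of endothelial and in 1.61% of proximal tubule nuclei. Of the macula densa markers, Avpr1a stood at 1.33 CPM (counts scaled to a library total of 1000000) and Ptgs2 at 0.964, with Nos1 at 0 by the rule. These 2 levels rest on 11 and 8 UMIs, and all other nuclei stood at only 2.09 and 1.36 CPM. They therefore say little about macula densa nuclei.

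The 8 proximal tubule markers were all present. Slc34a1, the proximal phosphate transporter, stood at 285 CPM in the members and 2438 in all other nuclei, and Lrp2, the endocytic receptor megalin, at 172 and 1251. The summed level of the 8 markers was 654 and 829 CPM in Ctrl ZT4, 774 and 957 in cKOt ZT4, 720 and 835 in Ctrl ZT16, and 862 and 799 in cKOt ZT16, and the ranges of the 4 groups overlapped. At least 2 Slc34a1 UMIs were found in 621 members (34.0%). Whether this RNA was free or came with doublets was not tested.

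A subset of 37 members (2.02%) held fewer than 10 Slc12a1 UMIs and looked different. Their Slc12a1 level was 626 CPM against 16771 in the other 1791 members, Umod 119 against 2639, Egf 105 against 9286 and Casr 39.6 against 815. Calb1, a calcium-binding protein of the distal convolution, stood at 475 against 22.0 CPM, and Slc8a1, the sodium-calcium exchanger, at 9711 against 426. Tmem207 was 165 against 922, Cldn16 98.9 against 168 and Cldn19 283 against 101. These 37 nuclei carried little of what marks the thick ascending limb.

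The members were not uniform in other ways either. Enox1, a gene of a cell-surface oxidase, and Ptger3, a prostaglandin E2 receptor, are both listed for the segment. At least 2 UMIs of Enox1 were held by 659 members (36.1%) and of Ptger3 by 705 (38.6%), with both in 117 (6.40%) and neither in 581 (31.8%). Malat1, Egf, Nrxn3, Rbfox1, Slc12a1, Sgcz and Enox1 were among the 30 genes with the largest excess of variance over counting noise in each of the 8 libraries. As this is within the chosen nuclei, it is a description only.

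Next, the members were compared with claudin 10 nuclei, which met the same limits on Slc12a1, Slc12a3 and Nos1, held at least 2 Cldn10 UMIs and none of the claudin 16 side. The question was which other genes separate nuclei with RNA of the claudin 16 side from nuclei with Cldn10 RNA. Each library gave a sum for both kinds, with the library (mouse) as a block, in edgeR's quasi-likelihood test with Benjamini-Hochberg adjustment. As first set, with at least 2 Slc12a1 UMIs, the comparison held 6928 claudin 10 nuclei with Slc34a1 at 3642 CPM, Lrp2 at 1985 and Slc12a1 at only 3490, a profile with more proximal tubule RNA than thick ascending limb RNA. It called 3565 of 16866 genes higher (21.1%) and 4587 lower (27.2%). The differences of the time effect and of the genotype effect between the kinds called 87 (0.516%) and 119 genes (0.706%). A comparison chosen after these values were seen required at least 10 Slc12a1 UMIs on both sides, and left 1791 claudin 16 and 1750 claudin 10 nuclei with Slc12a1 at 16771 and 17537 CPM. Of 10618 nuclei with at least 10 Slc12a1 UMIs, 1216 held at least 2 UMIs of both sides and 1699 held none of either. Neither of these sets entered the comparison, so it covers the nuclei at the 2 ends only.

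On this footing 789 of 13482 genes were higher (5.85%) and 1240 lower (9.2%) in claudin 16 nuclei. The excess of lower genes was not seen with at most 2 UMIs over Lrp2, Slc34a1 and Slc5a12 in a nucleus (356 higher and 362 lower) or after removal of doublets (561 and 584). The former limit selects against proximal tubule RNA by design and left 11406 genes to test. Tmem52b, a membrane protein gene, was at 276 to 502 CPM by library in claudin 16 nuclei and at 8.04 to 20.6 in claudin 10 nuclei, a log2 difference of 4.86 ± 0.0993 (SE, adjusted p = 4.34e-28, n = 8 libraries). Kcnj10 was at 91.6 to 172 against 1.79 to 12.2 CPM, 4.29 ± 0.157 on the log2 scale or 19.5-fold (adjusted p = 6.30e-21). Casr was at 644 to 960.4 against 149.9 to 332 CPM, 3.15-fold higher (adjusted p = 1.62e-19). In none of these genes did the ranges of the 8 libraries overlap. Rbfox1, an RNA-binding protein gene, Nrxn3, a neurexin gene, and Jag1, a Notch ligand gene, differed by 3.83, 3.70 and 3.43 on the log2 scale, and Enox1 by 2.29. Wnk1, a kinase that controls the cotransporters of the distal nephron, was 3.45-fold higher (adjusted p = 4.52e-20).

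The genes of each list followed. The lists were fixed with earlier results of these data known, so their counts are a description and no independent support. Of 19 calcium and magnesium genes tested, 12 were higher and 1 lower, against 5.85% and 9.2% over all genes. Casr, Egf and Umod of this list also served in the check of the label. Egf was at 6872 to 11988 against 3272 to 6385 CPM (2.09-fold, adjusted p = 2.12e-19), Pth1r, the parathyroid hormone receptor, at 134 to 203 against 50.0 to 104 (2.39-fold), and Umod at 1665 to 3632 against 1082 to 3032 (1.39-fold, higher in 8 of 8 libraries although the ranges overlap). On the log2 scale, Vdr, the vitamin D receptor, differed by 0.61, Cnnm2, a magnesium regulator, by 0.48, and Trpm7, a magnesium-permeable channel, by -0.43. A UMI of Pth1r was held by 37.6% of members, 12.9% of endothelial and 67.7% of proximal tubule nuclei.

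Of 12 salt transport genes, 7 were higher and 2 lower, against the same shares over all genes. Kcnj16, a partner of Kcnj10, was 1.57-fold higher and Fxyd2, a sodium pump subunit, 1.56-fold. Kcnj1, the apical potassium channel ROMK, was at 362 to 428 CPM in claudin 16 and 345 to 496 in claudin 10 nuclei, and its difference of -0.03 on the log2 scale had a 95% interval of -0.14 to 0.09. Of 17 transcription factors, 6 were higher and 6 lower, again against 5.85% and 9.2%. Foxq1 was at 38.6 to 55.9 against 1.22 to 11.3 CPM (7.57-fold higher) and Irx3 3.70-fold higher, while Irx1 was 5.09-fold and Irx2 2.92-fold lower. The Iroquois genes Irx1, Irx2 and Irx3 encode related homeodomain proteins of nephron segments, and they did not move in 1 direction.

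Of 11 tight junction genes outside the rule, 2 were higher, Ocln (occludin) by 0.45 and Tjp1 (ZO-1) by 0.27. Of 19 hormone and kinase genes, 6 were higher and 5 lower. Ptger3 was at 308 to 694 against 807 to 1525 CPM, 2.34-fold lower (adjusted p = 3.74e-19), and was detected in 53.2% of members and 92.3% of claudin 10 nuclei, against 7.42% of endothelial nuclei. Gcgr, the glucagon receptor, was 1.85-fold higher. Of 18 clock genes 1 was higher and 3 lower, of 14 energy genes 2 were higher (Pdk4 and Ldhb), and of 13 stress genes none was called, against 5.85% higher and 9.2% lower over all genes, so that these counts say little about the lists. Hlf, 1 of the 3 lower clock genes (-0.82), and Pde4d, 1 of the 5 lower hormone and kinase genes (-0.25), turned to 0.26 and 0.41 with at most 2 UMIs over Lrp2, Slc34a1 and Slc5a12, and to 0.063 and 0.29 after removal of doublets.

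**Figure D1:**
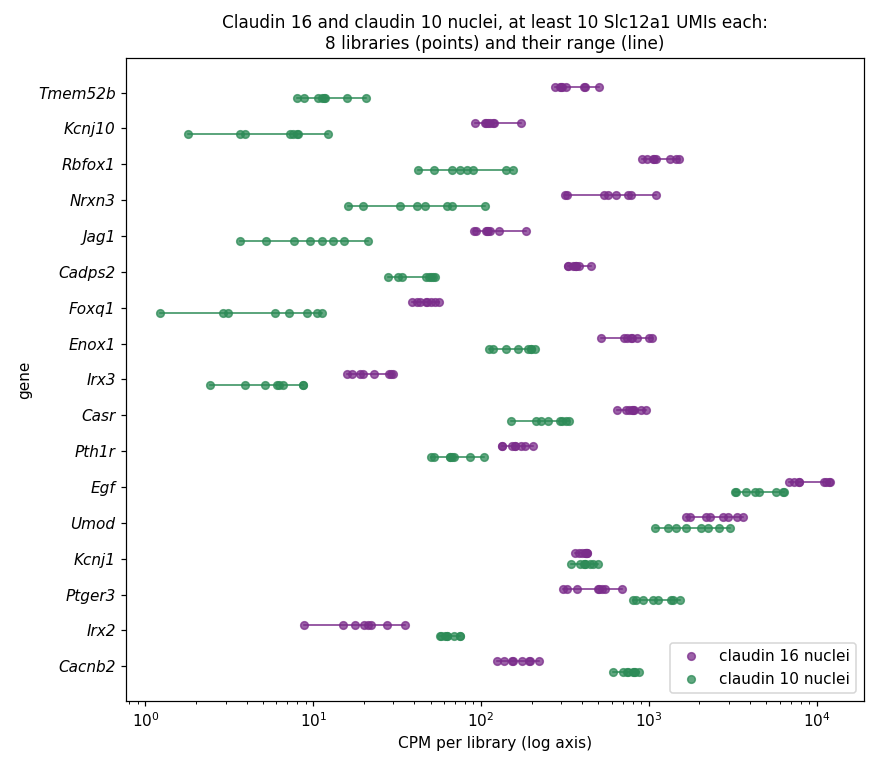
Level of 17 genes (CPM per library, log axis) in claudin 16 nuclei and claudin 10 nuclei, each with at least 10 Slc12a1 UMIs; points are the 8 libraries and lines their range. Tmem52b, Kcnj10, Casr and Foxq1 do not overlap between the kinds, Umod and Kcnj1 do, and Ptger3, Irx2 and Cacnb2 lie lower in claudin 16 nuclei.

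The 12 most strongly called lower genes were mixed. Cacnb2, a calcium channel subunit gene, was 4.41-fold lower (124 to 221 against 609 to 867 CPM) and Pik3c2g, a lipid kinase gene, 3.55-fold. Slc34a1, Hnf4aos, Slc47a1, Dab2 and Cyp2j5, also among the 12 most strongly called, belong to the proximal tubule. Gm42397, Fut9, Rhobtb1 and Pter were not assigned to a segment here. Doublet calls were 3.07% to 8.87% of claudin 16 nuclei by library and 11.8% to 18.7% of claudin 10 nuclei, and Lrp2 stood at 172 against 470 CPM. A limit of at most 2 UMIs over Lrp2, Slc34a1 and Slc5a12 in a nucleus itself lowers Slc34a1. It selects against proximal tubule RNA, so lost calls of Hnf4aos, Slc47a1, Dab2 and Cyp2j5 were in part set by it and test nothing. Under this limit 8 of the 11 lower genes other than Slc34a1 lost their call, while Cacnb2 (-2.44), Ptger3 (-1.43) and Pik3c2g (-1.40) kept it. All 12 of the highest-ranked higher genes kept theirs under that limit. The source of the proximal tubule RNA was not tested.

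The kinds were also compared for their response. The difference between the time effects in Ctrl was called for 4 genes with a higher (0.0297%) and 2 with a lower value (0.0148%) in claudin 16 nuclei, and the difference between the genotype effects for 4 (0.0297%) and 1 (0.00742%). Gpc5, which encodes the proteoglycan glypican 5, was at 354 and 437 CPM at ZT4 and 405 and 379 at ZT16 in claudin 16 nuclei of Ctrl mice. In claudin 10 nuclei of the same mice it was at 329.9 and 394, then 171 and 144. The difference of the time effects was 1.15 ± 0.160 on the log2 scale (adjusted p = 2.54e-04, edgeR). Its call was kept without any 1 of the 8 libraries, but DESeq2 gave 1.17 with an adjusted p of 0.0646 and called none of the 6 genes. Abca13, a transporter gene, lay lower in the cKOt ZT4 than in the Ctrl ZT4 libraries in both kinds. Averaged over both times, its genotype effect was 0.69 ± 0.0972 higher in claudin 16 nuclei (adjusted p = 3.30e-04, edgeR). It was not called between the genotypes at ZT16 in the members.

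The claudin genes themselves cannot be tested inside the members, where the rule binds them. In the members, Cldn16 was at 225 and 162 CPM in Ctrl ZT4, 206 and 131 in cKOt ZT4, 123 and 188 in Ctrl ZT16, and 152 and 184 in cKOt ZT16. Tmem207 was at 1033 and 870.1, 869 and 925, 793 and 799.96, and 974 and 1039 in the same order, and Cldn19 between 75.3 and 119 in all libraries. Cldn16 and Cldn19 overlapped between the groups, and Tmem207 was lowest in the 2 Ctrl ZT16 libraries. Across all 26679 nuclei with at least 2 Slc12a1 UMIs and no limit on claudins, of which 10618 held at least 10, edgeR called 0 of 20 tests (Cldn10, Cldn16, Cldn19 and Tmem207 in the 4 contrasts and the interaction), with 5 at an unadjusted p under 0.05, and DESeq2 called 1. Cldn10 was at 272 and 306 CPM in Ctrl ZT4 and 401 and 426 in cKOt ZT4, a difference of 0.57 on the log2 scale with a 95% interval of 0.28 to 0.86 (adjusted p = 0.168), and this was the test that DESeq2 called (adjusted p = 0.026). With at least 4 Slc12a1 UMIs the Cldn10 difference was 0.33, and with at least 10 it was 0.17 (-0.13 to 0.47). Cldn16 was at 36.9 and 21.3 CPM in Ctrl ZT4 and 17.9 and 22.4 in Ctrl ZT16, a difference of -0.52 (-1.21 to 0.17), which was -0.30 with at least 10 Slc12a1 UMIs. Tmem207 differed by -0.45 between the times in Ctrl (-0.81 to -0.09, adjusted p = 0.413), and by -0.19 (-0.47 to 0.08) with at least 10 Slc12a1 UMIs, and its time effects differed between genotypes by 0.64 (0.14 to 1.15) and 0.56 (0.17 to 0.95) on these limits, without a call.

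The share of claudin 16 nuclei among nuclei with at least 10 Slc12a1 UMIs was 19.6% and 16.6% in Ctrl ZT4, 15.0% and 16.3% in cKOt ZT4, 15.4% and 16.3% in Ctrl ZT16, and 17.5% and 18.8% in cKOt ZT16. The means were 18.1% ± 2.10, 15.6% ± 0.893, 15.9% ± 0.656 and 18.2% ± 0.903 (SD, n = 2). Of all nuclei that passed the quality limits, the means were 2.28% ± 0.109, 1.82% ± 0.370, 2.49% ± 0.120 and 2.40% ± 0.109. The exact two-sided permutation test of 2 against 2 libraries gives no p below 0.333, so it could not pass 0.05 for any of the 4 contrasts of either share. Nuclei with at least 2000 UMIs were also thinned to 2000 each, and those with fewer were left out. This kept 912 of 1107 nuclei in Ctrl ZT4 replicate 1 and 1178 of 1198 in cKOt ZT16 replicate 1, so the set varied with depth. The means of the first share were then 16.4%, 14.4%, 14.2% and 17.5%. At ZT16 the genotypes overlapped with a claudin limit of 1 UMI (22.4% and 26.1% in cKOt, 23.1% and 24.3% in Ctrl) and among all nuclei with at least 2 Slc12a1 UMIs (5.94% and 7.37% against 6.11% and 6.80%), so their separation depended on these limits.

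**Figure D2:**
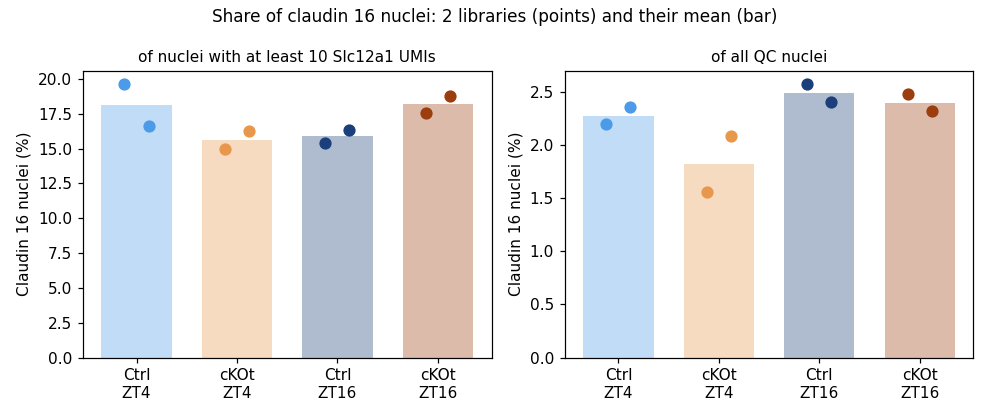
Share of claudin 16 nuclei (%) in each library, of nuclei with at least 10 Slc12a1 UMIs (left) and of all nuclei that passed the quality limits (right); points are the 2 libraries of a group and bars their mean. The cKOt ZT16 libraries (17.5% and 18.8%) lie above the Ctrl ZT16 ones (15.4% and 16.3%) on the left, and the order is not the same on the right.

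The next question was which genes of the claudin 16 nuclei changed between ZT4 and ZT16 in Ctrl mice. UMIs were summed over the members of each library and tested with edgeR's quasi-likelihood test, with Benjamini-Hochberg adjustment over all genes tested. Of 11448 genes, 30 rose (0.262%) and 30 fell (0.262%) from ZT4 to ZT16, and 989 had an unadjusted p under 0.05. For each called gene the groups did not overlap. That is a description and adds no support to the calls, which rest on the difference between the same libraries. The share of all tested genes without overlap is not given here. The targeted gene comes first because it bears on every contrast below.

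Arntl, which encodes the clock activator BMAL1, was at 4.97 and 4.31 CPM in Ctrl ZT4, 259 and 171 in cKOt ZT4, 155 and 146 in Ctrl ZT16, and 245 and 250.3 in cKOt ZT16. It was near absent in Ctrl mice at ZT4 and abundant in the other 3 groups. Counts at the 3′ end of the gene do not separate the deleted exon, so these levels neither show nor contradict the deletion. In Ctrl, Arntl rose 31.2-fold from ZT4 to ZT16 (4.96 ± 0.333 on the log2 scale, adjusted p = 3.28e-09). The ZT4 level rests on few UMIs, and without the 37 members with few Slc12a1 UMIs the difference was 5.29. In cKOt the time difference was 0.20 with a 95% interval of -0.19 to 0.59.

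The clock list moved in both directions. Of 17 clock genes tested, 4 rose and 5 fell in Ctrl, against 0.262% in each direction over all genes. Npas2, a partner of BMAL1 in the activator dimer, was at 1.24 and 5.17 CPM at ZT4 and 40.7 and 44.9 at ZT16 (3.51 ± 0.467 on the log2 scale, adjusted p = 2.14e-04, and 4.93 without Ctrl ZT4 replicate 2). Without the 37 members with few Slc12a1 UMIs the Npas2 difference was 5.12. Cry1, a repressor of that dimer, was at 3.73 and 5.17, then 34.6 and 43.0 (3.01 ± 0.427). These genes were low at ZT4, as was Arntl. Nr1d2, encoding the repressor REV-ERB beta, was at 142 and 149 CPM at ZT4 and 32.4 and 32.5 at ZT16 (-2.20 ± 0.248, adjusted p = 2.66e-05). Its relative Nr1d1 had 36 UMIs at ZT4 and 0 at ZT16, at least 14.5-fold lower against a floor of 3 counts over the group. Dbp and Tef, output factors of the clock, and Per3, a period gene, fell by 2.87, 1.04 and 1.39 on the log2 scale (adjusted p = 0.0136, 0.0126 and 0.0183), but each of these 3 calls was lost when any 1 of the 4 Ctrl libraries was left out. Arntl, Npas2, Cry1 and Gpr39 kept theirs in all 4 cases. Clock, the other partner, was at 135 and 122, then 154 and 179 CPM.

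**Figure D3:**
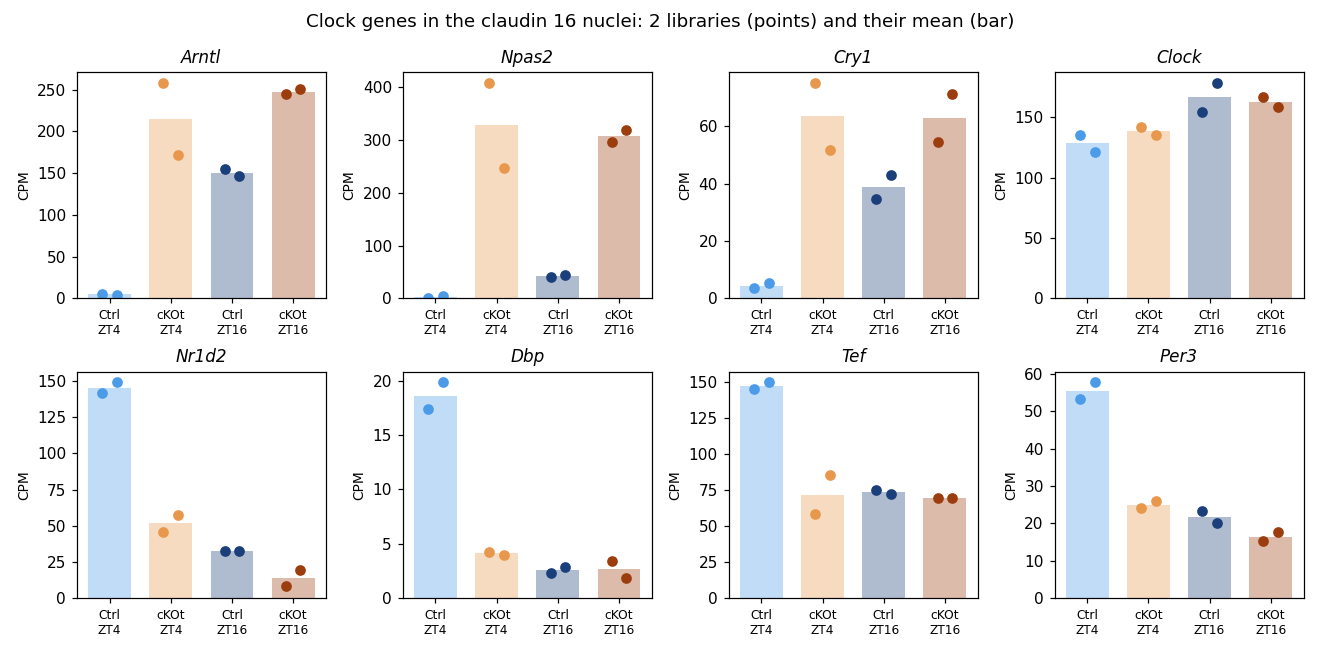
Level of 8 clock genes in claudin 16 nuclei (CPM) by group; points are the 2 libraries and bars their mean. Arntl, Npas2 and Cry1 are low in Ctrl ZT4 and higher in the other 3 groups, Clock shows no such pattern, and Nr1d2, Dbp, Tef and Per3 are highest in Ctrl ZT4.

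Hspa5, Hsp90b1 and Pdia6, genes of protein folding in the endoplasmic reticulum, rose at night in both genotypes. They and the other folding genes named here form no list fixed for this work, and those outside the 6 top-ranked genes were picked after their values were seen. Hspa5, encoding the chaperone BiP, was at 27.3 and 43.1 CPM in Ctrl ZT4 and 218 and 152 in Ctrl ZT16, 4.99-fold higher (2.32 ± 0.283 on the log2 scale, adjusted p = 8.57e-05). In cKOt it was at 56.8 and 30.9, then 208 and 127, 3.89-fold higher (adjusted p = 0.00162). Both night groups lay above both day groups. Hsp90b1 (GRP94) was at 67.1 and 86.2, then 211 and 187 CPM in Ctrl (1.32 ± 0.215, adjusted p = 0.00233), and 81.0 and 54.8, then 236 and 167 in cKOt (1.57 ± 0.224, adjusted p = 0.00142). Pdia6, a disulfide isomerase, was at 22.4 and 14.7, then 71.5 and 49.7 CPM in Ctrl (1.72 ± 0.297), and 27.0 and 23.9, then 86.1 and 75.1 in cKOt (1.65 ± 0.280). Pdia3 rose by 1.23 in Ctrl and differed by 1.09 in cKOt (adjusted p = 0.0895), Hyou1 rose by 2.01 in Ctrl and differed by 1.20 in cKOt (adjusted p = 0.421), and Pdia4 rose by 2.15 in cKOt and differed by 1.22 in Ctrl (adjusted p = 0.185). Hspa8, a cytosolic chaperone and the only called member of 11 stress genes tested (0.262% of all genes rose), rose by 1.19 in Ctrl, and lost the call without any 1 of the 4 libraries.

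In cKOt the calls of Hspa5 and Hsp90b1 were lost without cKOt ZT4 replicate 2 (1.55 and 1.31, adjusted p = 0.0539 and 0.0535), and that of Pdia6 without it or without cKOt ZT16 replicate 1. In Ctrl the call of Hspa5 was kept in all 4 cases, that of Hsp90b1 was lost without Ctrl ZT4 replicate 1 (1.19, adjusted p = 0.12), and that of Pdia6 was lost without Ctrl ZT16 replicate 1 or Ctrl ZT4 replicate 2. The single-genotype calls of Pdia3, Hyou1 and Pdia4 were each lost in 3 of 4 cases. The difference of the time effect between genotypes was -0.36 for Hspa5 (95% interval -1.22 to 0.50), 0.25 for Hsp90b1 (-0.39 to 0.90) and -0.07 for Pdia6 (-0.92 to 0.79).

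The 250 bases before the start of these genes are shown because they hold a motif known from folding stress, the ERSE (CCAAT, any 9 bases, then CCACG, on either strand), in capitals. All sequences are from RefSeq on GRCm38.p6, and 0.130% of the 27025 genes with a window hold an ERSE in it. Hspa5 (chr2:34771840-34772089, plus strand) and Pdia6 (chr12:17266339-17266588, plus strand) hold 1 match and Hsp90b1 (chr10:86705445-86705694, minus strand) holds 2, the second in reverse.
Hspa5: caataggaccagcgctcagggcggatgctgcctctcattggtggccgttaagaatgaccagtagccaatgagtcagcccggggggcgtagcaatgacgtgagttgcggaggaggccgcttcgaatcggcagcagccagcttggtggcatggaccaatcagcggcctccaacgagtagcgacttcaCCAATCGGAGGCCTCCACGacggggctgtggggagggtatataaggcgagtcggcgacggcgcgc
Hsp90b1: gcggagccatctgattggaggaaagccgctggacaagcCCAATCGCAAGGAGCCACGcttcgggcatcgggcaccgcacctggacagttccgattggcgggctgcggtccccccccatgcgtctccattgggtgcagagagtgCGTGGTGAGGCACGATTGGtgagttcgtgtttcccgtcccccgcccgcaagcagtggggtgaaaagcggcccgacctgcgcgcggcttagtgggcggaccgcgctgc
Pdia6: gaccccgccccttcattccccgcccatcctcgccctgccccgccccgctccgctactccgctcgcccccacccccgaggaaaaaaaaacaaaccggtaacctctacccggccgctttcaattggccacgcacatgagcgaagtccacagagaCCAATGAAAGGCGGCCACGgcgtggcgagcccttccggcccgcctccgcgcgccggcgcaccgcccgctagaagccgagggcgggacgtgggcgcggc
No match was found in the windows of Pdia3 and Pdia4, and Hyou1 was not searched. A match is a run of letters only. Cry1 holds 1 E-box (CACGTG, in 6.86% of genes) and Npas2 none in the window.

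Other genes that rose in Ctrl were led by Gpr39, encoding a zinc-sensing receptor, with 31.0 and 28.5 CPM at ZT4 and 113 and 113 at ZT16 (1.89 ± 0.250, adjusted p = 2.14e-04). Among genes that fell, Nrxn3 was at 1099 and 649, then 321 and 305 CPM (-1.52 ± 0.196), Klhl29 at 204 and 264, then 70.0 and 65.9 (-1.83 ± 0.254), and Sdk1, an adhesion gene, at 78.2 and 116, then 27.1 and 35.4 (-1.70 ± 0.248). The long noncoding RNA 4930556J24Rik was at 351 and 223, then 124 and 99.4 CPM (-1.39 ± 0.213, adjusted p = 0.00124). The call of 4930556J24Rik was lost without Ctrl ZT4 replicate 1 and that of Sdk1 without Ctrl ZT4 replicate 2.

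None of the 12 salt transport, 8 tight junction, 16 transcription factor and 14 energy genes tested was called between ZT4 and ZT16 in Ctrl, where 0.262% of all genes rose and 0.262% fell, so that a count of 0 is near the background. The medians of these lists were -0.09, 0.20, -0.09 and -0.01 on the log2 scale, against 0.01 over all genes. Slc9a3, the apical sodium-proton exchanger, differed by -0.64 (adjusted p = 0.0883). Of 19 calcium and magnesium genes, 1 was called. Egf was at 10961 and 11544 CPM at ZT4 and 7242 and 7554 at ZT16 in Ctrl, a difference of -0.64 (adjusted p = 0.0615). In cKOt it was at 11187 and 11883, then 6669 and 7706, a difference of -0.70 (adjusted p = 0.0797). In both genotypes the night libraries lay below the day libraries, short of the threshold. Casr did not separate the times, at 759 and 874, then 949 and 708 CPM in Ctrl. Of 19 hormone and kinase genes, Tsc22d3, a glucocorticoid target, was called, at 22.4 and 6.90, then 39.2 and 77.4 CPM (2.04 ± 0.473, adjusted p = 0.0499), and it lost the call without Ctrl ZT16 replicate 2 (1.45) or Ctrl ZT4 replicate 1 (3.03) or 2 (1.32).

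The called calcium gene was Slc8a1, at 165 and 260.4 CPM in Ctrl ZT4, 220.2 and 227 in cKOt ZT4, 778 and 360.3 in Ctrl ZT16, and 1615 and 757 in cKOt ZT16. In Ctrl it rose by 1.36 ± 0.295 (adjusted p = 0.0278), and in cKOt by 2.38 ± 0.301 (adjusted p = 6.02e-04, and 1.75 without cKOt ZT16 replicate 1). The 37 members with few Slc12a1 UMIs carried much of it. Without them the levels were 166 and 251, 196 and 227, 323 and 359, and 964 and 755 CPM in the same order, the Ctrl difference was 0.66 (adjusted p = 0.156), and the cKOt call was kept at 1.99 (adjusted p = 2.44e-06). The Ctrl call was also lost without Ctrl ZT16 replicate 1 (0.72, adjusted p = 0.485) or either ZT4 library. Among members with at most 2 UMIs over Lrp2, Slc34a1 and Slc5a12, the cKOt difference was 0.80 (adjusted p = 0.76). The 5 distal convoluted tubule markers summed to 84.4 and 75.9 CPM in Ctrl ZT4, 82.4 and 67.7 in cKOt ZT4, 100.2 and 90.8 in Ctrl ZT16, and 125 and 91.8 in cKOt ZT16, with Pvalb near 0 at 0.602 CPM. Their part in the Slc8a1 result was not tested.

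Aqp2 and Slc14a2, listed here with the collecting duct and the thin limb markers, were also called in Ctrl. Aqp2 was at 19.9 and 8.62, then 45.2 and 107 CPM (adjusted p = 0.00424), while all 6 principal cell markers were detected and summed to 47.2 and 35.4, then 114 and 164. Slc14a2, a urea transporter gene, was at 29.8 and 8.62, then 76.8 and 543 CPM in Ctrl, and 266 and 24.9, then 5.11 and 32.4 in cKOt. Its replicates differed by more than 3-fold in every group. Both genes were highest in Ctrl ZT16 replicate 2, and which cells their RNA came from was not tested. The Ctrl call of Aqp2 was lost without Ctrl ZT16 replicate 2 or Ctrl ZT4 replicate 2, and that of Slc14a2 was lost without Ctrl ZT16 replicate 2 or either ZT4 library. The thin limb markers summed to 55.9 and 43.1 CPM in Ctrl ZT4, 289.8 and 44.8 in cKOt ZT4, 129 and 562 in Ctrl ZT16, and 49.4 and 66.7 in cKOt ZT16. Slc14a2 outweighed the other 3 markers together in 5 of 8 libraries, but not in Ctrl ZT4 replicate 2 or in either cKOt ZT16 library.

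At ZT4, cKOt and Ctrl claudin 16 nuclei were compared to show how the genotypes differed at that time. Of 10931 genes, 18 were higher (0.165%) and 7 lower (0.064%) in cKOt, and 677 had an unadjusted p under 0.05. Clock genes led again, 4 higher and 2 lower of 17. Npas2, at 409 and 248 CPM against 1.24 and 5.17, was 88.8-fold higher (6.47 ± 0.368, adjusted p = 9.44e-11), and Arntl 45.2-fold (adjusted p = 1.16e-10). The Npas2 difference was 5.96 without Ctrl ZT4 replicate 1, 7.89 without Ctrl ZT4 replicate 2 and 8.12 without the 37 members with few Slc12a1 UMIs. That of Arntl was 5.50 with these 37 members and 5.82 without them. Cry1 was at 75.3 and 51.8 CPM in cKOt (3.74 on the log2 scale). Nr1d2 was at 45.5 and 57.8 against 142 and 149 CPM (-1.48, adjusted p = 0.0031), and Tef at 58.2 and 85.7 against 145 and 150.0 (-1.01, adjusted p = 0.034), both lost without either Ctrl library or without cKOt ZT4 replicate 1. This contrast shares the Ctrl ZT4 libraries with the time contrast, so a library level common to both enters both values. The 4 endothelial markers were all detected and summed to 53.4 and 54.3 CPM in Ctrl ZT4 and 168 and 129 in cKOt ZT4, without overlap, and to 87.4 and 88.9, then 62.2 and 133 at ZT16. None of the 4 was called at ZT4 (Flt1 differed by 1.47, adjusted p = 0.131), and their part in the genotype calls was not tested.

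Outside the clock, Rhobtb1, which encodes a BTB domain protein, was at 112 and 92.6 CPM in cKOt against 13.7 and 21.6 (2.48 ± 0.275, adjusted p = 1.26e-05), and Dcdc2a, a doublecortin family gene, at 66.8 and 77.7 against 9.94 and 16.4 (2.40 ± 0.313). Pdk4, a kinase that limits pyruvate oxidation and the only called gene of 14 energy genes, was at 88.1 and 114 against 26.1 and 9.48 CPM (2.60 ± 0.339, adjusted p = 1.44e-04). Klhl29 was at 35.5 and 87.7 against 204 and 264 (-1.87 ± 0.266), Ano4, of the anoctamin family, at 111 and 108 against 224 and 285 (-1.23), and Sgcz, a sarcoglycan gene, at 716 and 903 against 1684 and 1860.0 (-1.13). The Pdk4, Klhl29 and Ano4 calls were lost without Ctrl ZT4 replicate 2, and the Sgcz call in 3 of 4 cases. Pdk4 differed by 1.95 without Ctrl ZT4 replicate 2 and by 3.42 without Ctrl ZT4 replicate 1, and Klhl29 by -2.74 without cKOt ZT4 replicate 2.

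Umod was the called gene of the calcium and magnesium list. It was at 2941 and 2683 CPM in Ctrl ZT4 and 1652 and 1740.3 in cKOt ZT4, 1.66-fold lower in cKOt (-0.73 ± 0.152, adjusted p = 0.034). At ZT16 it was at 3588 and 3254 in Ctrl and 2135 and 2272 in cKOt, a difference of -0.62 (95% interval -0.93 to -0.30, adjusted p = 0.199). Both cKOt groups lay below both Ctrl groups, but the ZT4 call was lost without any 1 of its 4 libraries (adjusted p = 0.15 to 0.581) and after removal of doublets (adjusted p = 0.0777). The 12 salt transport, 8 tight junction, 18 hormone and kinase, 16 transcription factor and 10 stress genes tested held 0 calls at ZT4, against 0.165% higher and 0.064% lower over all genes, so that a count of 0 is near the background.

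**Figure D4:**
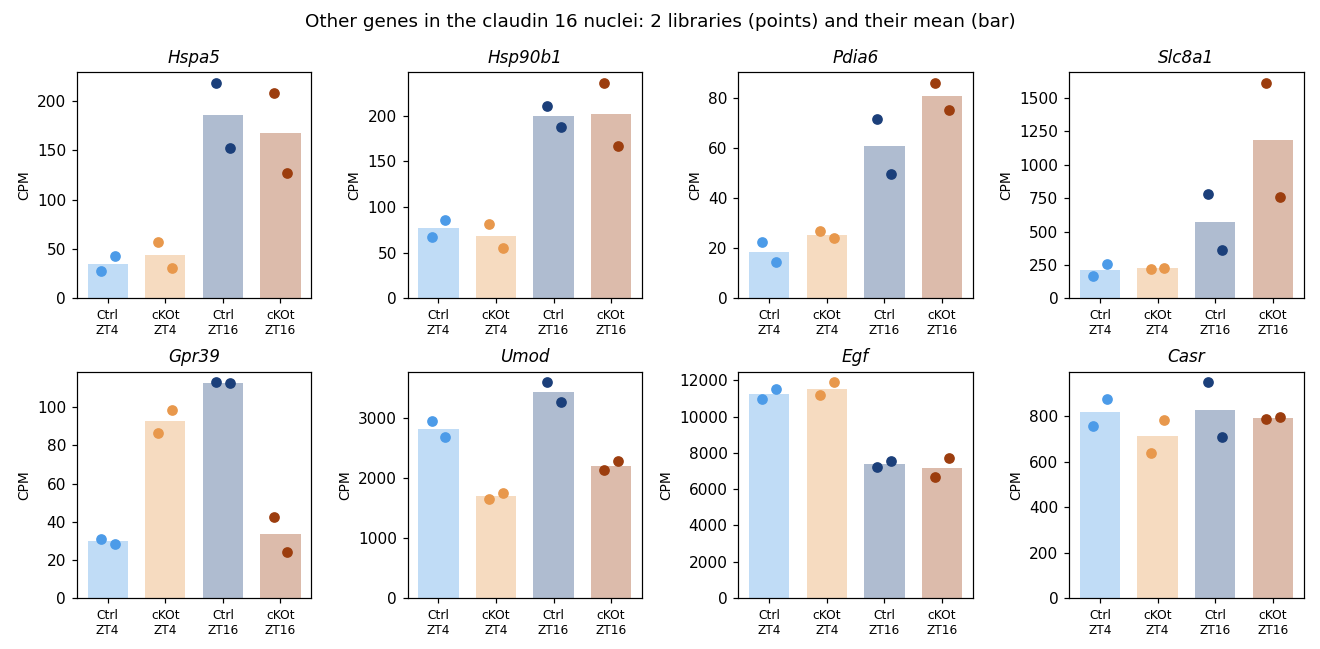
Level of 8 further genes in claudin 16 nuclei (CPM) by group; points are the 2 libraries and bars their mean. Hspa5, Hsp90b1 and Pdia6 are higher at ZT16 in both genotypes, Gpr39 has opposite time differences in Ctrl and cKOt, and Umod is lower in cKOt at both times.

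At ZT16 the genotypes differed in 6 of 11595 genes, 3 higher (0.0259%) and 3 lower (0.0259%) in cKOt, with 533 at an unadjusted p under 0.05. Npas2 was at 297 and 319 CPM in cKOt against 40.7 and 44.9, 7.29-fold higher (2.87 ± 0.239, adjusted p = 2.72e-07), the called gene of 15 clock genes. Arntl differed by 0.73 (adjusted p = 0.233). The noncoding RNA 4732463B04Rik was at 29.0 and 20.4 against 3.01 and 1.91 CPM (adjusted p = 0.00834), and Dnah12, a dynein gene, at 101 and 91.8 against 45.2 and 29.6 (1.37, adjusted p = 0.029). Gpr39 was at 42.6 and 24.1 against 113 and 113 CPM, 3.32-fold lower (adjusted p = 0.00133). Ano4 was at 129 and 167 against 316 and 353 (-1.16), as it was lower at ZT4, and Dlgap1, a synaptic scaffold gene, at 56.2 and 59.3 against 123 and 149 (-1.21). Leaving out a library kept the Npas2 and Gpr39 calls in all 4 cases, while 4732463B04Rik, Dnah12 and Dlgap1 lost theirs in 3 of 4 and Ano4 in 2. With at most 2 UMIs over Lrp2, Slc34a1 and Slc5a12 in a nucleus, 9736 genes were left to test. Npas2, Gpr39 and 4732463B04Rik then kept their calls, and Ano4 (-1.11, adjusted p = 0.115), Dnah12 (1.19, adjusted p = 0.361) and Dlgap1 (-1.20, adjusted p = 0.131) lost theirs. Beyond Npas2, no list gene was called.

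Within cKOt, 10 of 11204 genes rose (0.0893%) and 6 fell (0.0536%) from ZT4 to ZT16, with 809 at an unadjusted p under 0.05. Both genotypes shared 6 genes that rose (6 of 30 in Ctrl and 6 of 10 in cKOt): Hsp90b1, Hspa5, Nccrp1, Pdia6, Ralyl and Slc8a1. They shared 4 genes that fell (4 of 30 and 4 of 6): Bach2, Nr1d2, 4930556J24Rik and 9530026P05Rik. Bach2, a transcriptional repressor gene, was at 115 and 109, then 48.9 and 39.2 CPM in Ctrl, and 105 and 119, then 39.2 and 32.4 in cKOt (-1.66, adjusted p = 9.74e-04). Nr1d2 was at 45.5 and 57.8, then 8.52 and 19.5 in cKOt (-1.93 ± 0.325, adjusted p = 0.00768), the called gene of 15 clock genes. Pdk4 fell by 1.61 in cKOt, from 88.1 and 114 to 31.5 and 36.2 CPM. Grm7, a glutamate receptor gene, rose from 12.8 and 12.9 to 54.5 and 64.0 CPM (2.17, adjusted p = 0.00768), and Pcdh9, a protocadherin gene, from 8.52 and 4.98 to 69.9 and 28.7 (2.89, adjusted p = 0.0163). Nr1d2, Pcdh9, 4930556J24Rik and 9530026P05Rik lost the call without cKOt ZT4 replicate 2 or cKOt ZT16 replicate 1, Grm7 without the former, and Pdk4 in 3 of 4 cases. Without cKOt ZT16 replicate 1 Pcdh9 differed by 2.12, and without cKOt ZT16 replicate 2 Nr1d2 differed by -2.65. The calls of Bach2 were kept in all 4 cases in both genotypes, while Nccrp1 lost its call in every case in both genotypes and Ralyl in 4 of 4 in cKOt and 3 of 4 in Ctrl. After removal of doublets, Grm7 differed by 0.65 (adjusted p = 0.852) and Pcdh9 by 1.66 (adjusted p = 0.332). With at most 2 UMIs over Lrp2, Slc34a1 and Slc5a12 in a nucleus, 2 of the 16 calls were left, and Hspa5, Hsp90b1 and Pdia6 differed by 1.68, 1.42 and 1.49 (adjusted p = 0.0649, 0.0649 and 0.184). That limit removed nuclei and left 8507 genes to test. Whether calls were lost with fewer UMIs or with less proximal tubule RNA was not tested.

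The time effect itself differed between genotypes for 8 of 11907 genes, 1 with a higher (0.0084%) and 7 with a lower value in cKOt (0.0588%), and 466 had an unadjusted p under 0.05. Arntl (-4.76 ± 0.403, adjusted p = 3.85e-07), Npas2 (-3.61 ± 0.521) and Cry1 (-3.02 ± 0.515) were among the 4 called of 17 clock genes. These 3 rose in Ctrl and showed no called change in cKOt. Gpr39 crossed over, with a rise of 1.89 in Ctrl and a difference of -1.49 in cKOt (adjusted p = 0.00768), and its difference was -3.38 ± 0.354 (adjusted p = 1.13e-05). Its cKOt fall lost the call without cKOt ZT4 replicate 2 or cKOt ZT16 replicate 2, but the difference kept it in all 8 cases. Rhobtb1 (-1.98), Grm7 (2.75) and Slc14a2 (-6.99) were also called. Cry1 and Slc14a2 lost the call in 4 of 8 cases, Grm7 in 5, Rhobtb1 in 6 and Npas2 without Ctrl ZT4 replicate 1 (-3.09, against -5.03 without Ctrl ZT4 replicate 2). Over the 8 cases Slc14a2 ranged from -8.85 to -4.54. With at least 10 Slc12a1 UMIs the Npas2 difference was -5.23, and its call was kept. DESeq2 called neither Grm7 nor Rhobtb1 (adjusted p = 0.0827 for both) nor Slc14a2. After removal of doublets Grm7 was at 0.33 (adjusted p = 0.999) and Rhobtb1 at -1.71 (adjusted p = 0.37), and the Slc14a2 call was lost too (adjusted p = 0.0683). With at most 2 UMIs over Lrp2, Slc34a1 and Slc5a12, 10198 genes were left to test, and Arntl and Gpr39 kept their calls. Npas2 (-3.14), Cry1 (-2.86), Grm7 (3.27), Rhobtb1 (-2.01) and Slc14a2 lost theirs. For Umod and Egf the time effects differed by 0.12 (95% interval -0.33 to 0.56) and -0.06 (-0.51 to 0.39).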

How the data were processed

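Kidney nuclei were isolated from frozen tissue, sorted with DAPI and profiled with 10x 3′ v3.1 chemistry, 20000 nuclei loaded per library. The submitters' processing notes name bcl2fastq 2.20, Cell Ranger 7.1.0 and Seurat 5 with GRCm39, whereas the study's methods name an mm10 reference, so no coordinates of the files were used. The deposited files hold raw UMI counts per gene and nucleus, made by the authors with Cell Ranger and not normalized.

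Members were found from these counts by the rule in the text. The members, marker lists and gene lists were chosen with earlier results of these data known. UMIs were summed per library and fitted with edgeR 4.0.16 (R 4.3.3, TMM, 1 model of the 4 groups, genes with at least 5 counts in both libraries of a group compared, calls at an adjusted p under 0.05). The claudin 16 and claudin 10 comparison used 16 sums with the library as a block. DESeq2 1.42.0 was an alternative, and Scrublet (scanpy 1.11.5) called doublets. CPM are UMIs scaled to a total of 1000000 over the nuclei summed. Intervals are 95% and cover counting or replicate error only.

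Most genes were named by rule: the 7 genes of the gate, the lists, the 6 top-ranked called genes per direction of each contrast, and 12 per direction for the claudin comparison. Outside this rule were Aqp2, Slc14a2, Bach2, Hsp90b1, Pdia3, Pdia6 and Hyou1 in the Ctrl time contrast, and Pdia4 in that of cKOt. Nccrp1 and Ralyl in both time contrasts, and Grm7 and Rhobtb1 in the difference of the time effects, were also added. Replicate libraries differed by more than counting noise (chi-square per degree of freedom 2.27 to 2.77). Scripts were tested on simulated data. Some genes of the lists are not reported here, though counts include them.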

Additional observations from a re-analysis of the deposited data

Results flagged for a closer look

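For 8 genes the time difference itself (ZT16 against ZT4) differed between cKOt and Ctrl in claudin 16 nuclei, by edgeR's quasi-likelihood test of the interaction with Benjamini-Hochberg adjustment. On the log2 scale the differences of the 7 reported here were -4.76 for Arntl, -3.38 for Gpr39, -3.61 for Npas2, -3.02 for Cry1, -6.99 for Slc14a2, 2.75 for Grm7 and -1.98 for Rhobtb1. Slc14a2 rested on libraries that disagreed with their own replicate in every group. Without 1 library, Cry1 and Slc14a2 lost the call in 4 of 8 cases, Grm7 in 5, Rhobtb1 in 6 and Npas2 in 1, and DESeq2 and the removal of doublets each ended the calls of Grm7, Rhobtb1 and Slc14a2, with Grm7 at 0.33 without doublets.

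For 6 genes the time difference in Ctrl differed between claudin 16 and claudin 10 nuclei with at least 10 Slc12a1 UMIs. Gpc5 differed by 1.15 ± 0.160 (adjusted p = 2.54e-04), Slc14a2 by 3.36, Frmpd4 by 2.02, Gramd1b by 1.61, Rtl4 by -1.14 and Etnk1 by -0.69. DESeq2 called none of the 6. With at most 2 proximal tubule UMIs, 7 genes were called, and 3 of them were among these 6. Without 1 library, Rtl4 lost the call in 4 of 8 cases, Etnk1 in 3, Frmpd4 and Gramd1b in 2, Slc14a2 in 1 and Gpc5 in 0. Gramd1b turned to -0.25 with at most 2 proximal tubule UMIs and to -0.35 after removal of doublets, and Slc14a2 was at 1.68 after that removal (adjusted p = 0.576) and at 1.99 without Ctrl ZT4 replicate 1. In Ctrl, Gramd1b was at 70.0 and 48.8 CPM, then 92.3 and 120.3 at ZT16 in claudin 16 nuclei, and at 353 and 314, then 143 and 258 in claudin 10 nuclei. Rtl4, a retrotransposon-derived gene, was at 369.8 and 288, then 372 and 403 CPM in claudin 16 nuclei, and at 67.2 and 54.3, then 139 and 174 in claudin 10 nuclei.

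For 5 genes the genotype difference, averaged over both times, differed between the kinds. Abca13 differed by 0.69, 4732463B04Rik by 2.92, Rtl4 by 0.95, Tmcc3 by -0.56 and Klk1 by 0.75. DESeq2 called Abca13 alone (adjusted p = 0.0489). With at most 2 proximal tubule UMIs, 3 genes were called, and only 1 of them was among these 5. Without 1 library, Tmcc3 and Klk1 lost the call in 4 of 8 cases, Rtl4 in 2, 4732463B04Rik in 1 and Abca13 in 0. Abca13 was at 3183 and 3083 CPM in Ctrl ZT4 and 1813 and 2440.3 in cKOt ZT4 in claudin 16 nuclei, against 1868 and 2071, then 725 and 964 in claudin 10 nuclei. 4732463B04Rik was at 2.29 and 1.97 CPM in Ctrl ZT16 and 29.9 and 20.7 in cKOt ZT16 in claudin 16 nuclei, against 8.10 and 7.53, then 3.92 and 5.36.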

How the results depend on the processing

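Each library gave 704055 to 1327926 UMIs from its claudin 16 nuclei, and calls were not compared between depths. Groups hold 2 mice. Of the alternatives on named genes, 2245 kept direction and call, 262 kept direction and lost the call, and 9 reversed. The limit of at most 2 proximal tubule UMIs also removed nuclei, and fewer genes could be tested under it in every contrast. The causes were not tested.

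The count of calls for ZT16 against ZT4 in Ctrl was 60, and 38 with at most 2 proximal tubule UMIs, 130 without a filter on low counts and 19 to 35 without 1 library. For cKOt against Ctrl at ZT4 it was 25, and 62 without a filter and 7 to 42 without 1 library. At ZT16 it was 6, and 10 with DESeq2, 11 with at least 10 Slc12a1 UMIs, 11 with a claudin limit of 3 UMIs, 12 after removal of doublets, 41 without a filter and 2 to 13 without 1 library. For ZT16 against ZT4 in cKOt it was 16, and 2 with at most 2 proximal tubule UMIs, 55 without a filter and 9 to 27 without 1 library. For the difference of the time effects it was 8, and 5 with DESeq2, 4 with at most 2 proximal tubule UMIs, 29 without a filter and 4 to 12 without 1 library.

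For claudin 16 against claudin 10 nuclei, 8152 genes were called as first set (7546 to 7898 without 1 library), and 2029 with at least 10 Slc12a1 UMIs. The latter count was 1310 with DESeq2, 718 with at most 2 proximal tubule UMIs, 1145 after removal of doublets and 1794 to 1926 without 1 library. Signs reversed with at most 2 proximal tubule UMIs for Hlf (0.26), Pde4d (0.41), Hnf4aos (0.083), Cyp2j5 (0.15), Fut9 (0.020) and the Gramd1b time difference (-0.25), and after removal of doublets for Hlf (0.063), Pde4d (0.29) and Gramd1b (-0.35).

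The difference of the time effects between the kinds was called for 87 genes as first set, 3 with DESeq2, 11 with at least 20 counts, 6 with at least 10 Slc12a1 UMIs and 42 to 97 without 1 library. With at least 10 Slc12a1 UMIs throughout it was 0 with DESeq2, 3 with at least 20 counts, 1 with a claudin limit of 3 and 2 to 9 without 1 library. The difference of the genotype effects was called for 119 genes, 13 with DESeq2, 53 with at least 20 counts, 5 with at least 10 Slc12a1 UMIs and 74 to 130 without 1 library. With at least 10 Slc12a1 UMIs throughout it was 1 with DESeq2, 3 with a claudin limit of 3 and 11 after removal of doublets. With at most 2 proximal tubule UMIs it was 3, of which only 1 was among the 5. It also moved when 1 library was left out. Claudin genes in all nuclei with at least 2 Slc12a1 UMIs had 0 calls by edgeR in every case without 1 library and 1 by DESeq2.

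The labels number replicates 1 and 2 in every group. Deviations of same-numbered libraries correlated at -0.116 to 0.236 over 5417 genes, and with only 2 numbers they were not taken as pairs. With a replicate block the 5 counts were 64, 28, 8, 20 and 8, of which 58, 25, 6, 16 and 8 were shared with the fit without it.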
